A study of Mus musculus with 15 samples.

Results

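Octanal and cis-3-hexenol, offered to mice on separate papers (the O&C group), were set against empty paper (Control) by comparing the 3 O&C libraries with the 3 Control libraries, 6 of the 15 libraries of the study, over all measured genes. The O&C mice breathed both vapours for 90 min, with 10 µL of each odorant on its own filter paper and a gap of 1 mm between the papers, so that the odorants met only in the air. The O+C group received the same pair on a shared paper, and the A&D group received acetophenone and decanal on separate papers; both serve as further comparisons here. The Control mice were handled in the same way with empty filter paper. Every group consisted of 3 wild type C57BL/6J males, 8 weeks of age, which had spent 4 h in an odour-free chamber beforehand. All libraries carry 1 batch label, no group received a single odorant, and no females were studied. The labels call the 3 libraries of a group biological replicates, and each was taken as 1 mouse.

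Ribosomes with phosphorylated ribosomal protein S6 were pulled down from the olfactory epithelium, and the RNA attached to them was sequenced. S6 phosphorylation follows neuronal activity, so the method enriches RNA of active neurons. An olfactory sensory neuron as a rule expresses a single odorant receptor gene, and the odorants that bind this receptor open a cyclic nucleotide-gated channel through a G protein and adenylyl cyclase. A receptor transcript enriched in the precipitate therefore marks neurons that were active. Octanal is an aliphatic aldehyde and cis-3-hexenol a leaf alcohol with a green odour.

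The libraries held 22704200 to 25287100 counts, and 19229 of 57010 gene identifiers had enough counts to be tested. Levels are in CPM, counts scaled by edgeR to library size with its trimmed mean of M values (TMM), and the values of a group follow the order of replicates 1, 2 and 3. Fold changes are O&C over Control on the log2 scale with their standard error, and adjusted p-values come from edgeR's quasi-likelihood test with Benjamini-Hochberg adjustment over all 19229 genes. A gene was called at an adjusted p below 0.05. The defining markers of mature olfactory sensory neurons were abundant: Omp, the olfactory marker protein, had 7479, 9906 and 10092 CPM in O&C, against 4205, 4925 and 4308 CPM in Control. Together 21 such markers took 1.77%, 2.22% and 2.27% of the counts in O&C and 1.14%, 1.22% and 1.13% in Control, a difference of 0.922 percentage points (two-sided exact permutation p = 0.1, the smallest that 3 against 3 mice allow). The RNA came from ribosomes precipitated from a tissue. More cells, more RNA per cell and a larger precipitated part of that RNA cannot be told apart. Scaling the libraries on these markers moved the median log2 fold change of all genes from -0.04 to -0.83, and scaling on the receptors moved it to 0.23. Obp2a, a secreted odorant binding protein of the nasal glands, split both groups, with 0.434, 111 and 2.14 CPM in O&C, against 0.162, 126 and 247 CPM in Control. Among genes named below, Olfr247, Olfr479, Olfr509, Olfr749, Olfr376, Olfr1383, Olfr1384, Olfr1426, Olfr1508, Olfr715b, Olfr764-ps1, Olfr766-ps1, Pcdh10, Pcdh8, Lrrc3b, Heg1, Maff, Fosl1, Gnal, Adcy3, Gng13, Lhx2, Kirrel3, Kcnn2, Chil3, Dchs1, Lyz2, Csf1r, Akr1b3, Akr1c13, Aldh1a1, Gstm5, Tyms, Nr1d1, Rpl3, Rps6, Ifit3b, Lrrc58, Obp2a and the globin genes had fractional counts in more than 7 of the 15 libraries. Such genes are taken to divide reads with a similar or overlapping gene, and their values are uncertain.

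In O&C 1794 genes were called higher than in Control and 1040 lower, 9.33% and 5.41% of the genes tested. The balance between directions depended on the scaling: 2866 genes were higher and 62 lower when scaled on the receptors, 201 and 13990 when scaled on the neuron markers, and 1304 and 1804 without TMM. Odorant receptors supplied 134 of the higher genes and 71 of the lower ones, out of 866 receptors tested among 1107 listed. The counts depended on single mice. Leaving out O&C 3 reduced the higher count to 1021 and the lower count to 253. Leaving out Control 3 gave 1154 higher and 672 lower genes, and the lower count was 496 when Control 1, 539 when Control 2 and 545 when O&C 1 was left out. The receptors higher numbered 108 to 136 in these fits, and 105 of the 134 were called in each of them.

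The receptors that rose did so by large factors. Of the 134, 122 rose by more than 2-fold, 72 by more than 4-fold, 25 by more than 8-fold and 7 by more than 16-fold, with a median log2 fold change of 2.17, whereas the median was -0.39 over all 866 receptors and -0.04 over all genes. Outside the receptors, 235 of 1660 higher genes passed 2-fold. For 131 of the 134 every O&C library lay above every Control library. The same libraries chose the 134, so this is no further test. The groups were separated in this way for 144 of all 866 receptors and for 20.3% of all genes tested. Scaling on the receptors left all 134 called, and scaling on the neuron markers left 96. The libraries of all groups were also split at 10 CPM of the gland transcript Obp2a. Control 1 was the only Control library below that level, and O&C 2 the only O&C library above it. Counts of calls from these fits are therefore listed only among the processing alternatives, and no conclusion is drawn from them.

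The largest rise among receptors called in every fit was that of Olfr847 (ENSMUSG00000059821), with 9.58, 25.2 and 23.2 CPM in O&C, against 0.364, 0.558 and 0.620 CPM in Control. This is a log2 fold change of 5.22 ± 0.48 (adjusted p = 5.5e-06), or 37.3-fold. Every O&C library exceeded the highest Control library by more than the range of Control. Olfr1383 (ENSMUSG00000107417) had 50.2, 129 and 66.4 CPM in O&C, against 2.26, 1.71 and 3.06 CPM in Control, a log2 fold change of 5.12 ± 0.34 (adjusted p = 2.99e-07). O&C 2 was the highest library for both receptors, and O&C 1 the lowest of its group.

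Olfr1408 had 27.8, 46.8 and 46.1 CPM in O&C, against 1.17, 1.95 and 2.07 CPM in Control, a log2 fold change of 4.54 ± 0.32. Olfr1116 had 15.5, 27.5 and 22.5 CPM in O&C, against 0.525, 1.08 and 1.28 CPM in Control (4.50 ± 0.31). Olfr117 had 20.8, 39.6 and 40.0 CPM in O&C, against 1.78, 1.24 and 1.65 CPM in Control (4.42 ± 0.36). In these 3 the groups lay far apart and O&C 1 was again the lowest O&C library. Olfr509 had 61.9, 84.4 and 92.9 CPM in O&C, against 3.56, 5.38 and 4.21 CPM in Control (4.18 ± 0.32), and Olfr332 had 72.6, 112 and 110.4 CPM in O&C, against 5.50, 7.42 and 3.64 CPM in Control (4.16 ± 0.36). Olfr218 (3.87 ± 0.48) and Olfr1167 (3.81 ± 0.50) had O&C levels of 11.4, 20.4 and 15.4 CPM and 5.94, 9.30 and 7.08 CPM, and Control levels of 0.525, 0.798 and 1.900 CPM and 0.727, 0.638 and 0.207 CPM. Adjusted p-values of these 7 receptors ran from 1.21e-07 (Olfr1116) to 0.000137 (Olfr218).

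Other receptors rose with little spread between mice. Olfr1364 (ENSMUSG00000046016) had 131, 121 and 154 CPM in O&C, against 9.46, 10.8 and 10.2 CPM in Control. Its log2 fold change of 3.74 ± 0.16 had the smallest adjusted p of the named genes, 3.28e-10. Olfr1170 had 14.1, 17.7 and 16.5 CPM in O&C, against 0.889, 1.04 and 1.45 CPM in Control (3.84 ± 0.21, adjusted p = 6.06e-09), and Olfr984 had 8.85, 13.8 and 12.9 CPM in O&C, against 1.25, 0.558 and 0.785 CPM in Control (3.77 ± 0.29). The O&C values of Olfr1364 and Olfr1170 differed among mice by far less than they exceeded Control.

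**Figure D1:**
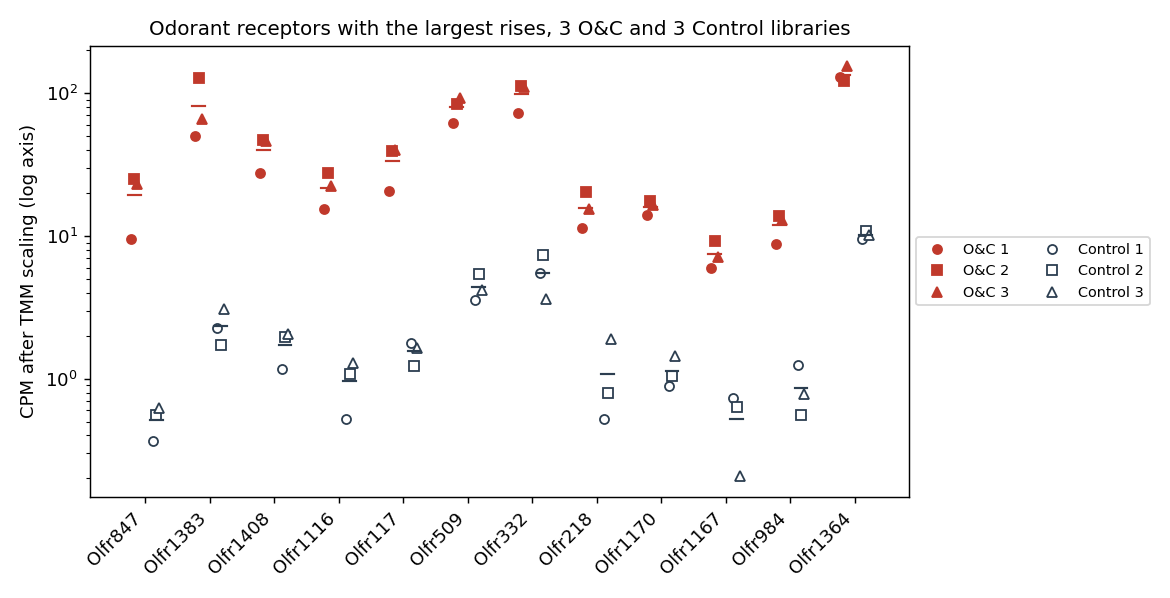
Levels of the 12 odorant receptors with the largest log2 rises by the naming rule, in CPM after TMM scaling on a log axis, for each of the 3 O&C libraries (filled) and 3 Control libraries (open); short lines are group means. For all 12 receptors the filled symbols lie above the open ones, and O&C 1 is the lowest O&C library for 11 of them.

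Olfr2 (ENSMUSG00000070417), the mouse I7 receptor and the receptor best known for its response to octanal, had 18.3, 19.9 and 21.2 CPM in O&C, against 3.19, 3.75 and 4.83 CPM in Control. It rose by 2.33 ± 0.17 on the log2 scale (adjusted p = 1.21e-07), with no overlap and only a narrow spread within O&C. Its level averaged 19.9 ± 0.616 CPM in O+C and 3.21 ± 0.312 CPM in A&D (SD, n = 3 each).

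By gain in mean CPM, which also depends on transcript length, the leading receptors were Olfr15, Olfr1364, Olfr370, Olfr124, Olfr1349 and Olfr455. Olfr15 had 133, 211 and 219 CPM in O&C, against 47.8, 47.1 and 50.3 CPM in Control, a log2 fold change of 1.95 ± 0.36 (adjusted p = 0.00337). Olfr370 had 125, 170.1 and 178 CPM in O&C, against 33.9, 29.3 and 39.6 CPM in Control (2.21 ± 0.17). O&C 1 was the lowest O&C library for both, yet stood well above the 3 Control libraries. Olfr124, also called SR1, a receptor of the septal organ known for broad tuning, had 133, 125 and 174 CPM in O&C, against 17.5, 30.1 and 25.3 CPM in Control (2.57 ± 0.22). Olfr1349 had 92.4, 142 and 184 CPM in O&C, against 23.2, 26.0 and 17.9 CPM in Control (2.64 ± 0.21), and Olfr455 had 105, 147 and 159 CPM in O&C, against 23.1, 25.5 and 27.3 CPM in Control (2.43 ± 0.16). The groups did not overlap for any of these receptors.

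The rise changed the make-up of the receptor pool. The 134 higher receptors made up 61.0%, 64.1% and 64.7% of all receptor counts in O&C, against 22.9%, 22.5% and 21.2% in Control. The 71 lower receptors made up 5.24%, 4.65% and 4.35% in O&C, against 13.2%, 13.2% and 14.8% in Control, and the 661 uncalled ones 33.7%, 31.3% and 30.9% in O&C, against 63.9%, 64.2% and 63.9% in Control. Because the same libraries chose these classes, the shares describe the response and are not a further test. The whole receptor family held 0.423%, 0.573% and 0.569% of all counts in O&C, against 0.309%, 0.365% and 0.350% in Control, a difference of 0.180 percentage points (two-sided exact permutation p = 0.1, the smallest possible). Set against the neuron markers the direction turned round: receptor counts were 23.9%, 25.8% and 25.1% of marker counts in O&C, and 27.2%, 29.9% and 31.0% in Control (difference -4.39 points, exact permutation p = 0.1).

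**Figure D2:**
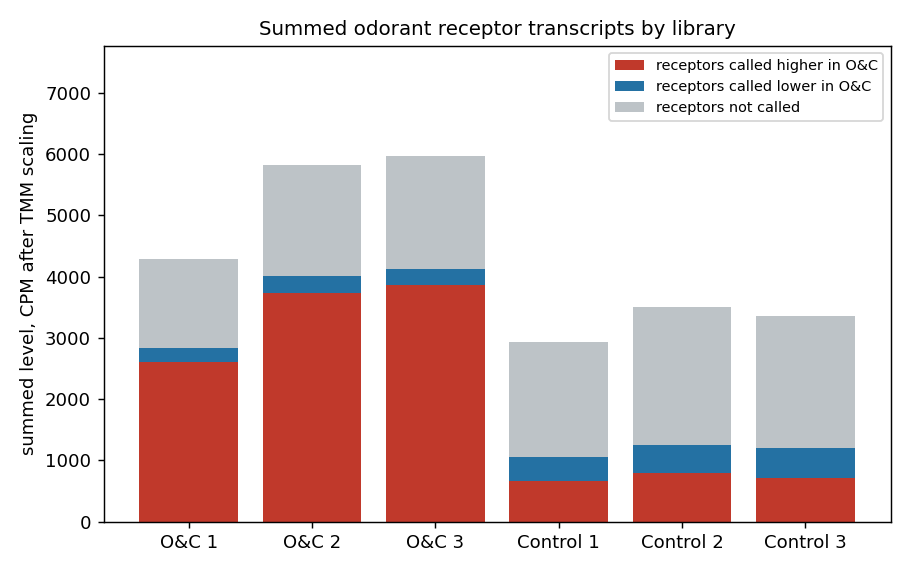
Summed levels of all tested odorant receptors in CPM for each library, O&C to the left of Control, split into receptors called higher in O&C, called lower in O&C, and not called. The receptors called higher sum to 2613, 3735 and 3865 CPM in O&C 1, 2 and 3, and to 670.4, 789.9 and 711 CPM in Control 1, 2 and 3.

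Receptor families were read from the MOR numbers among the gene synonyms, which 18 tested receptors lacked. The risen receptors with such a number were spread over 53 of the 206 families with a tested member. In 16 families at least 3 members rose. MOR256, whose members Olfr1383, Olfr117, Olfr1364, Olfr15 and Olfr124 are described above, had 19 of 43 tested members higher and 5 lower. MOR267 had 8 of 14 higher and none lower, with a median log2 fold change of 2.05 over the 14. Besides Olfr1408, Olfr509, Olfr218 and Olfr370, its risen members were Olfr479, Olfr1404, Olfr1358 and Olfr63, named after their values were seen. Olfr479 had 62.3, 92.9 and 84.8 CPM in O&C, against 6.30, 7.46 and 7.23 CPM in Control (3.51 ± 0.25). Olfr1404 had 19.6, 30.5 and 25.5 CPM in O&C, against 2.51, 2.95 and 2.60 CPM in Control (3.23 ± 0.23). Olfr1358 had 4.90, 9.14 and 7.43 CPM in O&C, against 0.364, 0.877 and 0.950 CPM in Control (3.28 ± 0.37), and Olfr63 had 7.85, 10.4 and 9.12 CPM in O&C, against 2.22, 2.63 and 2.48 CPM in Control (1.899 ± 0.21). The other 6 tested members of MOR267, among them Olfr239 (log2 fold change -0.12) and Olfr55 (0.98), were not called. MOR111 (5 of 9 members), MOR183 (5 of 7) and MOR260 (4 of 6) also rose in large part, with none lower. These families were picked out by their counts, which carry no test of their own.

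By class, the fish-like class I receptors gave 3 higher members of 87 tested (3.45%) and 12 lower (13.8%), with a median log2 fold change of -0.74. Class II, the main receptor class of mammals, gave 125 higher of 761 (16.4%) and 58 lower (7.62%), with a median of -0.36. The other 18 tested receptors had no MOR number and so no class, with 6 higher (33.3%) and 1 lower (5.56%). The 3 class I receptors that rose were Olfr628 (1.98 ± 0.58), Olfr653 (1.29 ± 0.30) and Olfr599 (1.27 ± 0.36), chosen here after their values were seen. Olfr653 alone of these kept its call without each of the 6 libraries. Trace amine-associated receptors, a separate family of olfactory receptors, gave no call by edgeR among 5 tested, 0 at an unadjusted p under 0.05 and 0 by DESeq2, with a median log2 fold change of -0.15.

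**Figure D3:**
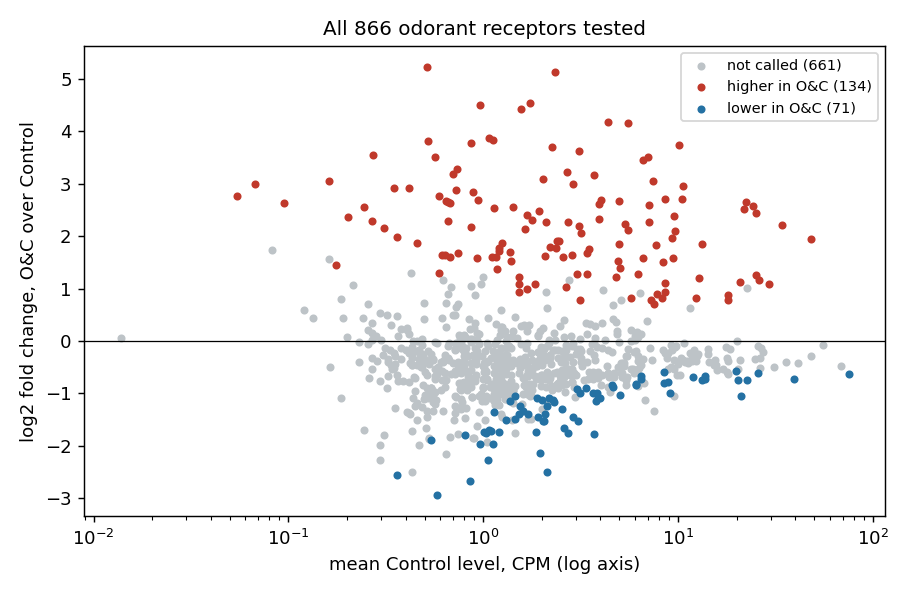
Log2 fold change of each of the 866 tested odorant receptors, O&C over Control, against its mean Control level in CPM on a log axis. Red points (134) were called higher in O&C, blue points (71) lower and grey points (661) neither; red points occur over the whole range of Control levels, and the grey points centre below 0 (median -0.42).

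With TMM scaling fewer receptors were called lower than higher. The 71 lower receptors had a median log2 fold change of -1.15, and 46 fell by more than 2-fold. The uncalled receptors had a median of -0.42. With 1 library left out the lower count was 18 (O&C 1), 19 (O&C 3), 26 (Control 2) or 33 (Control 3), and 18 to 56 over all 6 fits. After scaling on the receptors 22 were called lower, 21 of them among the 71, and 147 higher. The order turned round when scaled on the neuron markers, with 534 receptors lower and 96 higher, and without TMM the counts were 114 and 126. Counted by lack of overlap between the groups alone, 226 of the 866 tested receptors were lower in O&C and 144 higher. By that count 19.6% of all genes tested were lower and 20.3% higher. Only 8 stayed lower in all 6 of the leave-one-out fits. Of these Olfr1030 (ENSMUSG00000044923) had the largest fall, with 0.607, 0.369 and 0.356 CPM in O&C, against 1.62, 1.71 and 2.56 CPM in Control (log2 fold change -2.13 ± 0.36, adjusted p = 0.000752). The class I receptor Olfr615 had 1.13, 1.02 and 1.07 CPM in O&C, against 2.63, 4.47 and 4.01 CPM in Control (-1.78 ± 0.34). Another of class I, Olfr622, had 0.217, 0.410 and 0.223 CPM in O&C, against 0.606, 1.52 and 1.24 CPM in Control (-1.96 ± 0.43). In all 3 cases the lowest Control library was above the highest O&C library, at levels of a few CPM or less. The log2 fold changes were -1.71 ± 0.42 for Olfr875, -1.66 ± 0.34 for Olfr469 and -1.52 ± 0.32 for Olfr1357. Olfr1508 had 5.03, 4.75 and 3.92 CPM in O&C, against 8.12, 9.65 and 9.54 CPM in Control (-0.99 ± 0.20), and Olfr360 had 7.89, 7.17 and 7.21 CPM in O&C, against 11.8, 13.0 and 10.9 CPM in Control (-0.69 ± 0.13). Scaled on the receptors, Olfr360 lost its call (adjusted p = 0.174) and the other 7 kept theirs.

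Transcripts annotated as receptor pseudogenes also took part. Of 48 tested 8 were higher, each in all 6 leave-one-out fits, against 9.33% of all genes tested. Lower were 2, against 5.41% of all genes (median log2 fold change of the 48 -0.20, or 0.04 scaled on the receptors). The steepest were Olfr764-ps1 (3.38, 6.31 and 5.21 CPM in O&C, against 0.162, 0.239 and 0.289 CPM in Control; 4.404 ± 0.49) and Olfr766-ps1 (4.21 ± 0.53), singled out after their values were seen. Olfr715b, a receptor whose symbol lies outside the Olfr-and-number pattern, had 6.46, 9.59 and 9.79 CPM in O&C, against 0.687, 1.16 and 0.868 CPM in Control (3.24 ± 0.41, adjusted p = 6.23e-05).

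Activity-induced genes rose in part. Immediate early genes are switched on within minutes of calcium and cyclic AMP signals, and much of that induction runs through CREB, which binds the cyclic AMP response element TGACGTCA or the shorter form TGACG. Over all genes tested 9.33% were called higher and 5.41% lower. Of 27 immediate early transcription factors and related genes 9 were higher and 2 lower (median log2 fold change 0.24, or -0.55 when scaled on the neuron markers). The higher count was 5 without Control 1 or without Control 2, and 4 of the 9 were called in every fit. Of 24 feedback regulators of MAP kinase and cyclic AMP signalling 6 were higher and 2 lower (median 0.09, or -0.70 scaled on the neuron markers), and both lower calls were lost without O&C 2, without O&C 3, and without Control 1 or Control 2. The promoters of 3 risen genes of these lists, the 250 bases before the transcription start in RefSeq (GRCm38.p6), are shown because they hold several such elements. Capitals mark TGACG on either strand (CGTCA where it lies on the opposite strand).
Nr4a1, chr15:101266596-101266845, + strand: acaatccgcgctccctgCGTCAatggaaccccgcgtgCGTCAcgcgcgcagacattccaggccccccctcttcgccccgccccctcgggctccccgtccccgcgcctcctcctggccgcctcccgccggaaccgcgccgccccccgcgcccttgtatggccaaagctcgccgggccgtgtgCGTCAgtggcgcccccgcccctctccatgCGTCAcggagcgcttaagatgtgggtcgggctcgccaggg
Egr4, chr6:85513590-85513839, - strand: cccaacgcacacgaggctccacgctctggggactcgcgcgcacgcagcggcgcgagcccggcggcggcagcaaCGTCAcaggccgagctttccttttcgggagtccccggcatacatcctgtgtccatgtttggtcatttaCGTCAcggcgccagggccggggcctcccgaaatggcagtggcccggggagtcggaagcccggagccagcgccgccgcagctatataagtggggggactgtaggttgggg
Dusp1, chr17:26508473-26508722, - strand: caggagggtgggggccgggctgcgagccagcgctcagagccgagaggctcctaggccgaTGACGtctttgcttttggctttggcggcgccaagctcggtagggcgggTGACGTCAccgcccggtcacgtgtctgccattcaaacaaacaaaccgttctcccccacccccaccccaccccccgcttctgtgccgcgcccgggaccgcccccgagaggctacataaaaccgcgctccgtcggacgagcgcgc

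The Nr4a1 promoter holds 4 of the short elements, beginning 233, 213, 69 and 40 bases before the start, and that of Egr4 holds 2, at 177 and 109 bases. In Dusp1 there are 3, at 191, 143 and 140 bases, of which the last 2 overlap and form the palindrome TGACGTCA. Of the 15 risen genes of both lists 11 have a promoter in the RefSeq table; TGACG occurs in 9 of these and TGACGTCA in 2 (Dusp1 and Maff). Over all 27025 genes of the table the shares are 19.8% and 1.77%, searched on both strands. A match of letters shows no binding, and the authors' genome build (GRCm39) differs from that of the table.

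Nr4a1 (ENSMUSG00000023034), an orphan nuclear receptor induced by activity, had 181, 164 and 209 CPM in O&C, against 43.6, 37.9 and 31.1 CPM in Control. It rose by 2.30 ± 0.15 on the log2 scale (adjusted p = 5.92e-08) and by 1.501 when scaled on the neuron markers, with a wide gap between the groups. Egr4, a zinc finger factor, had 3.90, 2.21 and 1.47 CPM in O&C, against 0.404, 0.718 and 0.785 CPM in Control (1.98 ± 0.37, adjusted p = 0.00186). Its O&C values varied more, yet the lowest was above the highest Control value. Maff, a small Maf factor, had 27.3, 27.05 and 32.8 CPM in O&C, against 10.1, 9.37 and 10.9 CPM in Control (1.52 ± 0.21), and Ier2 had 79.6, 91.7 and 99.2 CPM in O&C, against 54.8, 62.8 and 53.0 CPM in Control (0.67 ± 0.12, turning to -0.14 scaled on the neuron markers).

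The classical activity markers were less uniform. Fosb had 13.4, 9.02 and 11.1 CPM in O&C, against 2.87, 1.68 and 1.94 CPM in Control (2.37 ± 0.55, adjusted p = 0.0111), with separate groups, but missed the threshold without Control 2 (adjusted p = 0.0528). Npas4, a factor specific to calcium signals in neurons, had 1.39, 1.64 and 0.890 CPM in O&C, against 0.0808, 0.0399 and 0.248 CPM in Control. Its log2 fold change of 3.37 ± 0.84 (adjusted p = 0.0121) rests on very low Control values, and the call was lost without Control 1 (adjusted p = 0.0605) or Control 2 (0.0617). Fos had 79.2, 69.6 and 83.4 CPM in O&C, against 40.3, 52.7 and 26.2 CPM in Control, a log2 fold change of 0.96 ± 0.44 that did not pass (adjusted p = 0.174), although the groups did not overlap. Egr1 had 141, 91.6 and 116 CPM in O&C, against 54.1, 77.4 and 45.6 CPM in Control (0.98 ± 0.37, adjusted p = 0.101), likewise uncalled and without overlap. Arc, with 17.2, 10.0 and 8.81 CPM in O&C, against 14.6, 11.1 and 13.8 CPM in Control, overlapped between the groups (log2 fold change -0.14 ± 0.22, adjusted p = 0.731, and 0.15 when scaled on the receptors). The remaining called members of the list were Nr4a2 (1.06), Fosl1 (1.67) and Ier5 (0.60, or -0.18 scaled on the neuron markers), higher, and Klf4 (-0.63) and Klf6 (-0.34), lower; each of these 5 lost its call in at least 4 of the leave-one-out fits.

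Among the feedback regulators the phosphatase Dusp14 had 510.1, 572 and 598 CPM in O&C, against 223, 234 and 210.2 CPM in Control (1.33 ± 0.14, adjusted p = 1.28e-05). Dusp1, which inactivates MAP kinases, had 264, 231 and 271 CPM in O&C, against 145, 162 and 128 CPM in Control (0.82 ± 0.13). Nfil3, a transcriptional repressor, rose by 1.03 ± 0.15, and Gem, a small GTPase that restrains calcium channels, by 0.91 ± 0.16. Each of these 4 kept its call in all 6 leave-one-out fits and had no overlap between groups; scaled on the neuron markers their log2 fold changes were 0.53 (Dusp14), 0.03 (Dusp1), 0.25 (Nfil3) and 0.12 (Gem).

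**Figure D4:**
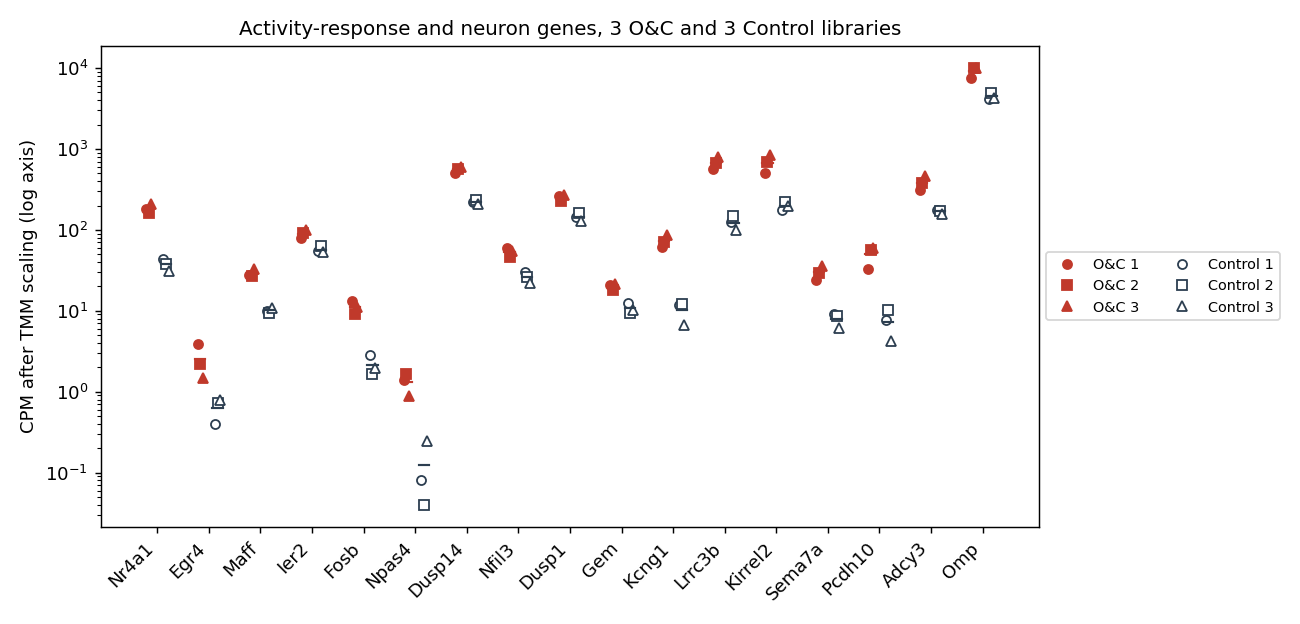
Levels of activity-response and neuron genes in CPM after TMM scaling on a log axis, for each O&C library (filled) and each Control library (open); short lines are group means. In all 17 genes the O&C symbols lie above the Control symbols, with a wide gap for Nr4a1 and a narrow one for Ier2. The 17 were picked for display and all were called higher. The uncalled Arc, Fos and Egr1 and the lower Klf4 and Klf6 are not shown.

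Genes that follow activity over longer times in olfactory neurons, and that sort their axons into glomeruli, were mostly higher: 9 of 15 passed the test upward, and did so in each of the 6 leave-one-out fits and none lower (median log2 fold change 0.86, or 0.04 scaled on the neuron markers). Lrrc3b had 566, 665 and 789 CPM in O&C, against 124, 147 and 98.7 CPM in Control (2.45 ± 0.23), and Pcdh10, an adhesion protein of the protocadherin family, had 32.4, 56.3 and 60.4 CPM in O&C, against 7.60, 10.1 and 4.26 CPM in Control (2.76 ± 0.37). Kirrel2, an adhesion molecule whose level in axons follows receptor activity, had 500.0, 685 and 850.4 CPM in O&C, against 177, 223 and 195 CPM in Control (1.77 ± 0.19). For these 3 the lowest O&C library was above the highest Control library by a wide margin. Sema7a, a membrane-anchored semaphorin, had 23.9, 29.6 and 36.1 CPM in O&C, against 9.09, 8.57 and 6.16 CPM in Control (1.91 ± 0.21), and S100a5, a calcium-binding protein of active olfactory neurons, had 2344, 3626 and 4654 CPM in O&C, against 1172, 1859 and 1551 CPM in Control (1.21 ± 0.27, adjusted p = 0.00774). Kirrel3 rose by 0.97 ± 0.12 and Cntn4 by 0.70 ± 0.12 (-0.11 scaled on the neuron markers). Scaled on those markers, Lrrc3b (1.64), Pcdh10 (1.94), Sema7a (1.097) and Kirrel2 (0.95) were still called higher. Of the 15 genes 5 were then called lower, against 13990 of all 19229 genes tested.

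Most genes of the transduction chain rose. Of 19 genes of olfactory signal transduction 16 were higher and none lower (median log2 fold change 0.88), and of 21 markers of mature olfactory neurons, which overlap with them, 18 were higher and none lower (median 0.86). Scaled on the neuron markers the medians were 0.08 and 0.04. The 21 markers themselves set that scaling, so their small median follows from it. The transduction genes overlap with them, so neither median is a test of the rise. The adenylyl cyclase Adcy3 had 315, 375 and 466 CPM in O&C, against 178, 173 and 156 CPM in Control (1.19 ± 0.16). The channel subunit Cnga2 had 566, 777 and 807 CPM in O&C, against 341, 377 and 365 CPM in Control (0.99 ± 0.17), and the G protein subunit Gnal rose by 0.92 ± 0.10. In all 3 O&C 1 was the lowest O&C library and lay above all Control libraries. Omp, whose levels are given above, rose by 1.03 ± 0.14 (adjusted p = 0.000125). Gfy, a Golgi protein of olfactory neurons, had 1789.6, 1955 and 2376 CPM in O&C, against 897, 789 and 708 CPM in Control (1.35 ± 0.16). The G protein exchange factor Ric8b rose by 1.02 ± 0.15, Umodl1 by 1.103 ± 0.13, and Gng13 by 1.25 ± 0.26.

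Of 19 tested genes that carry receptors to the membrane or govern their choice 6 were higher and Cbx5 was lower (-0.40), with a median log2 fold change of 0.10, or -0.68 scaled on the neuron markers. The chaperone Rtp2 had 563, 679.7 and 680.2 CPM in O&C, against 337, 401 and 344 CPM in Control (0.83 ± 0.13), its relative Rtp1 rose by 0.48 ± 0.10 and Reep1 by 0.87 ± 0.17. The factors Ebf4 (1.002 ± 0.11) and Lhx2 (0.58 ± 0.12) rose too. Scaled on the neuron markers, Rtp1 (-0.32) and Lhx2 (-0.20) turned negative. Both belong to the 21 markers that set this scaling and rose by less than the median of those markers (0.86). Immature olfactory neurons, with 11 genes tested (median -0.06, or 0.21 scaled on the receptors), and globose basal cells, with 10 (median -0.29), had no called gene by edgeR. At an unadjusted p under 0.05 they had 2 and 5 genes, and DESeq2 called 0 and 3. Horizontal basal cell markers gave 1 call of 8, Krt15 (-1.60), and unfolded protein response genes gave 1 of 14, Chac1 (0.46, or -0.33 scaled on the neuron markers).

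Potassium channels and protocadherins formed 2 further lists. Kcng1 (ENSMUSG00000074575), a modifying subunit of voltage-gated potassium channels, had 61.0, 71.6 and 86.9 CPM in O&C, against 11.6, 11.96 and 6.73 CPM in Control (2.85 ± 0.23, adjusted p = 1.11e-06). Of 69 potassium channel genes 15 were higher and 5 lower (median log2 fold change 0.23, or -0.56 scaled on the neuron markers), the lower ones numbering 0 to 3 without Control 1, Control 2 or any O&C library. Over all genes tested 9.33% were higher and 5.41% lower. Kcnmb3, a subunit of the calcium-activated BK channel, had 106, 159.9 and 192 CPM in O&C, against 49.0, 66.8 and 52.4 CPM in Control (1.45 ± 0.27). The small-conductance channel gene Kcnn2 rose by 1.26 ± 0.14, Kcnh3 by 1.105 ± 0.13, Kcna5 by 0.88 ± 0.13 and Kcnab2 by 0.58 ± 0.11; for Kcnab2 the value was -0.23 scaled on the neuron markers. Of 66 protocadherins 14 were higher and none lower (median 0.56, or -0.24 scaled on the neuron markers), but the count was 4 when O&C 3, 7 when Control 3 and 8 when Control 1 or Control 2 was left out. Besides Pcdh10, the 2 called in every fit were Pcdhb1, with 9.24, 11.3 and 11.3 CPM in O&C, against 4.65, 3.67 and 3.88 CPM in Control (1.38 ± 0.22), and Pcdh8 (0.86 ± 0.16).

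Other genes rose by similar factors. The activity-regulated synaptic protein Nptx2 had 31.4, 36.6 and 45.3 CPM in O&C, against 12.4, 10.5 and 9.21 CPM in Control (1.82 ± 0.19), and Rem2, a GTPase that regulates calcium channels, had 14.5, 14.0 and 18.6 CPM in O&C, against 3.80, 4.11 and 3.51 CPM in Control (2.04 ± 0.17). Heg1, a transmembrane protein, had 63.8, 76.2 and 94.1 CPM in O&C, against 20.8, 21.1 and 17.6 CPM in Control (1.98 ± 0.14). In each of the 3 genes all O&C libraries were above all Control libraries by a factor larger than the range within either group. Rises in the same range were found for Plppr5 (2.36 ± 0.41), Slc35f4 (2.101 ± 0.44), Ildr2 (2.02 ± 0.32) and Lor, which encodes the cornified envelope protein loricrin (1.85 ± 0.33). Tmem150cos, an RNA from the strand opposite Tmem150c, had 4.25, 7.46 and 9.03 CPM in O&C, against 0.445, 0.319 and 0.248 CPM in Control (4.34 ± 0.83). Whether strand was used in counting is not given in the sources used here, so its reads and those of Tmem150c (0.89 ± 0.15) may be mixed. The clock repressors Cry1 (0.88 ± 0.17) and Cry2 (0.71 ± 0.13, or -0.10 scaled on the neuron markers) rose and Nr1d1 fell (-0.62). These were 3 of 16 clock genes (median 0.01), against 14.7% of all genes tested called in either direction.

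Genes of other cell types tended to be lower in O&C. The share of neuron markers, 1.77% to 2.27% in O&C and 1.13% to 1.22% in Control, moved with these falls, and its part in them was not tested. Of 17 immune cell markers 9 were lower and none higher (median log2 fold change -0.78), and their summed level was 799, 1208 and 929 CPM in O&C, against 2143, 1418 and 1425 CPM in Control. Of these, 4 were left when Control 1, 5 when O&C 3 and 6 when O&C 1 was dropped, and 0 when scaled on the receptors. The macrophage gene Cx3cr1 had 6.85, 8.07 and 6.10 CPM in O&C, against 14.8, 14.4 and 13.6 CPM in Control (-1.03 ± 0.20). Lysozyme 2 (Lyz2) fell by 0.78 ± 0.13, the lysosomal marker Cd68 by 0.89 ± 0.18 and the growth factor receptor Csf1r by 0.85 ± 0.18 on the log2 scale.

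Of 12 sustentacular cell markers 6 were lower (median -0.53), 3 without O&C 3 and 1 when scaled on the receptors. Sult1c1, a sulfotransferase of these supporting cells, had 64.9, 77.0 and 58.9 CPM in O&C, against 121, 137 and 125 CPM in Control (-0.93 ± 0.12, adjusted p = 7.77e-05) and kept its call under that scaling (adjusted p = 0.00812). Krt18 (-0.55 ± 0.11) and Cbr2 (-0.68 ± 0.15) fell as well. Among 15 nasal gland secretory genes Bpifa1 (3324, 3480.3 and 3028 CPM in O&C, against 7357, 4560.2 and 5524 CPM in Control; -0.83 ± 0.18), Bpifb4 (-0.71 ± 0.14) and Ltf (-0.90) were lower, with a median of -0.62 for the list -0.23 without O&C 3 and -1.03 without O&C 2. Of 9 respiratory ciliated cell genes 4 were lower, but 2 in 5 of the leave-one-out fits and 1 without O&C 3; Sntn, of the ciliary tip, had 11.8, 13.4 and 10.2 CPM in O&C, against 25.1, 18.1 and 27.6 CPM in Control (-1.002 ± 0.17). Scaled on the receptors, 0 of the gland genes and 1 of the ciliated cell genes were called lower. Of the tuft and microvillar cell markers Pou2f3 rose (0.81 ± 0.18) and Ascl3 fell (-0.97 ± 0.22), among 7 tested. The matrix gene Dcn was the only call among 13 endothelial and stromal genes (-0.60 ± 0.12), S100b (-0.72) the only one among 10 of ensheathing glia, and 5 bone and muscle genes gave none by edgeR, 1 at an unadjusted p under 0.05 and 1 by DESeq2.

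The 6 red blood cell genes were all lower (median -0.82), with Hba-a1 at 4381, 3149.7 and 4252 CPM in O&C, against 5532, 7616 and 8993 CPM in Control (-0.91 ± 0.24). That count fell to 1 without Control 2, Control 3 or O&C 3. It was 0 without O&C 2, and 0 when scaled on the receptors. The globin copies share reads, so they are not independent of each other.

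Enzymes that handle odorants and foreign compounds were lower in part. Octanal and cis-3-hexenol are substrates of the kind that aldehyde and alcohol dehydrogenases act on. Of 33 genes of aldehyde and alcohol metabolism 14 were lower and none higher (median log2 fold change -0.44). The count was 6 without Control 2, 7 without Control 1 or O&C 3, and 1 scaled on the receptors. Adh7, an alcohol dehydrogenase of epithelia, had 20.2, 23.3 and 19.8 CPM in O&C, against 45.3, 34.4 and 36.3 CPM in Control (-0.87 ± 0.16). The aldehyde dehydrogenases Aldh1a1 (178, 227 and 170.0 CPM in O&C, against 332, 279 and 282 CPM in Control; -0.63 ± 0.12) and Aldh3a1 (-0.76 ± 0.15) fell too, as did the aldo-keto reductases Akr1b3 (-0.64 ± 0.11), Akr1c13 (-0.82 ± 0.16) and Akr1b8 (-0.72 ± 0.17). No O&C library reached the lowest Control library for any of these 6.

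Of 77 xenobiotic metabolism genes 24 were lower and 4 higher (median -0.45); the lower count was 9 without O&C 3, 14 without Control 1 or Control 2, and 2 scaled on the receptors. The glutathione transferases Gsto1 (-0.88 ± 0.17), Gsta4 (-0.68 ± 0.12) and Gstm5 (-0.59 ± 0.11) and the sulfotransferase Sult1e1 (-0.68 ± 0.13) fell. Sult4a1, a sulfotransferase known from brain, rose, with 296, 304 and 331 CPM in O&C, against 165, 179.5 and 165 CPM in Control (0.87 ± 0.14).

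**Figure D5:**
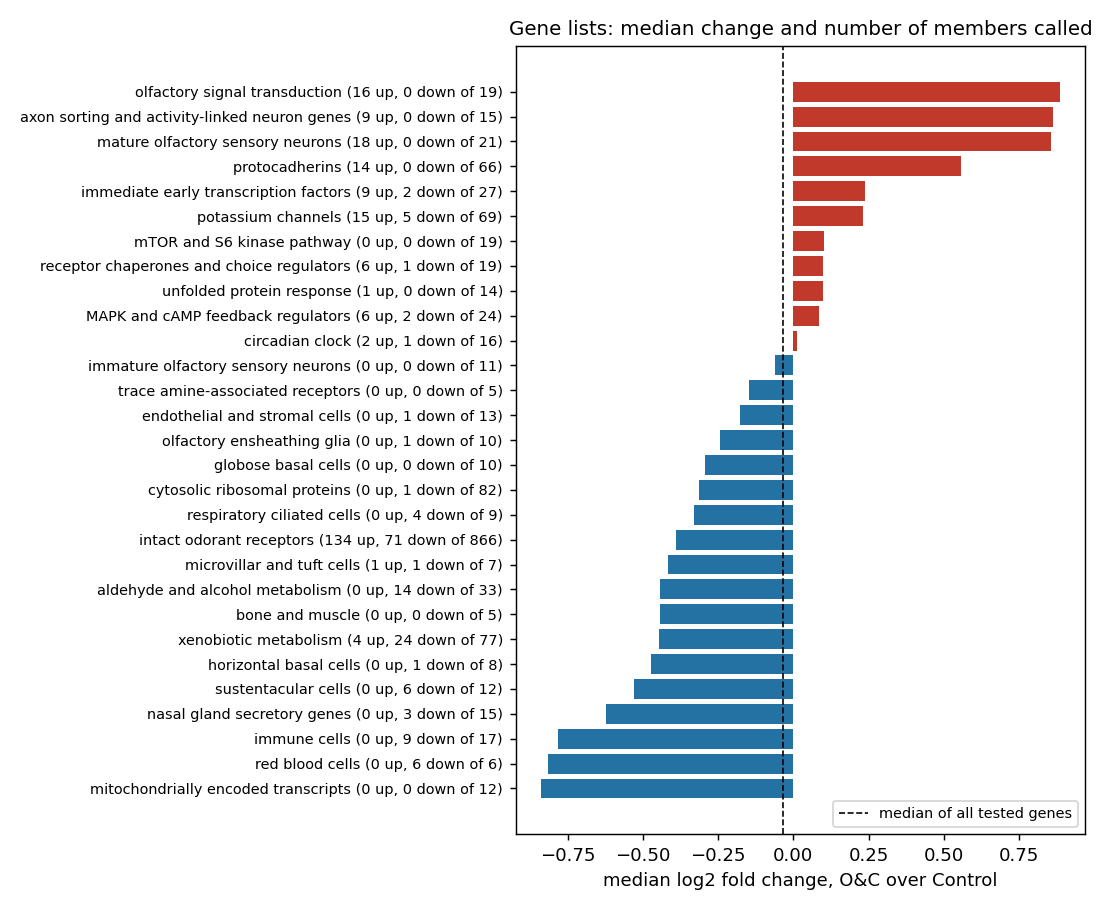
Median log2 fold change, O&C over Control, of the tested genes in each of 29 gene lists, with the numbers called higher (up) and lower (down) of those tested; the dashed line is the median of all genes (-0.04). Over all genes tested 9.33% were called higher and 5.41% lower. Signal transduction, axon sorting and mature neuron lists stand near 0.9, and immune, red blood cell and mitochondrial lists near -0.8.

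Among single genes outside any receptor, the largest stable falls were led by Tacr1, the substance P receptor, with 0.564, 0.738 and 1.25 CPM in O&C, against 4.00, 2.19 and 2.48 CPM in Control (-1.76 ± 0.39). Among the others, Chil3, a chitinase-like protein of macrophages, had 7.15, 6.27 and 7.79 CPM in O&C, against 27.7, 13.8 and 15.1 CPM in Control (-1.42 ± 0.26), and Retnlg, a resistin-like peptide of neutrophils, had 0.911, 0.861 and 1.02 CPM in O&C, against 2.46, 2.75 and 2.44 CPM in Control (-1.45 ± 0.33). Control 1 stood above the other Control libraries for Tacr1 and Chil3, and the groups did not overlap. The scavenger receptor Msr1 (-1.41 ± 0.31), the mannose receptor Mrc1 (-1.13 ± 0.24) and Cd300c2 (-1.11 ± 0.24) fell in the same range. The enzymes Hnmt, which methylates histamine (-1.35 ± 0.28), and Aoc1, which oxidises it (-1.13 ± 0.22), were also lower, as were the monoamine transporter Slc18a1 (-1.13 ± 0.25), Dchs1 (-1.26 ± 0.26), Itgbl1 (-1.21 ± 0.26) and Rassf9 (-1.14 ± 0.22). Scaled on the receptors, Slc18a1, Mrc1 and Cd300c2 lost their calls (adjusted p = 0.0661, 0.0529 and 0.0672).

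The S6 machinery itself gave no call: none of 19 mTOR and S6 kinase pathway genes passed by edgeR (median 0.10; 5 at an unadjusted p under 0.05 and 0 by DESeq2), and Rps6, which encodes S6, had 227, 222 and 221 CPM in O&C, against 241, 252 and 325 CPM in Control (-0.29 ± 0.15, adjusted p = 0.226). Of 82 cytosolic ribosomal protein genes Rpl3 was lower (-0.45), lost in every leave-one-out fit, and the median was -0.31. None of 12 mitochondrially encoded transcripts was called by edgeR (6 at an unadjusted p under 0.05 and 0 by DESeq2), at a median of -0.84, and their share of counts was 0.0576%, 0.0529% and 0.0487% in O&C and 0.0816%, 0.0895% and 0.114% in Control (exact permutation p = 0.1).

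The same pair of odorants on a shared paper (O+C) gave no gene that edgeR called different from O&C, 0% of the 19229 genes in either direction. At an unadjusted p below 0.05 there were 766 genes (3.98%), DESeq2 called 2 higher and 1 lower, and the smallest adjusted p of edgeR was 0.152. That p belonged to Olfr1404, with a mean of 25.2 ± 5.45 CPM in O&C and 10.2 ± 1.92 CPM in O+C (SD, n = 3 each), a log2 difference of 1.297 ± 0.21. After it among the receptors, by p, came Olfr1384 (1.27 ± 0.24, adjusted p = 0.556), Olfr1030 (-1.79 ± 0.36, adjusted p = 0.622) and Olfr317 (1.85 ± 0.40, adjusted p = 0.91). Olfr16, known as MOR23 (1.24 ± 0.28), and Olfr247 (1.81 ± 0.43) followed on the higher side, and Olfr622 (-1.81 ± 0.43), Olfr469 (-1.25 ± 0.34), Olfr1357 (-1.17 ± 0.32) and Olfr1377 (-1.65 ± 0.50) on the lower side. In total 50 receptors were higher and 26 lower in O&C at an unadjusted p below 0.05. Over the 134 receptors higher than Control the log2 difference O&C minus O+C had a median of 0.42 and ran from -0.61 to 1.85; it was positive for 117, and its standard error had a median of 0.28. These 134 were selected by their O&C level, so a positive difference is in part a product of the choice.

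Among other named genes averaging at least 1 CPM the smallest p-values against O+C belonged to Gpr37l1 (1.27 ± 0.29), Myh14 (0.85 ± 0.19), Myh11 (0.996 ± 0.26), Prss12 (1.13 ± 0.30) and Ifit3b (0.98 ± 0.27), with higher values in O&C, and to Lrrc58 (-0.41 ± 0.10), Dchs1 (-1.06 ± 0.26), Arhgap11a (-0.67 ± 0.17), Pprc1 (-0.75 ± 0.20) and Phex (-0.91 ± 0.24), with lower values. None passed the adjustment. Nr4a1 averaged 185 ± 22.8 CPM in O&C and 245 ± 43.1 CPM in O+C, a log2 difference of -0.41 ± 0.15 (adjusted p = 1). A difference that misses the threshold does not show that the 2 ways of offering the odorants act alike.

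Against acetophenone and decanal on separate papers (A&D), 463 genes were higher in O&C (2.41%) and 241 lower (1.25%). Scaled on the receptors 2148 were higher and 95 lower, and scaled on the neuron markers 117 and 4798, so that the balance turned. Receptors gave 88 of the higher and 93 of the lower genes, 118 and 84 scaled on the receptors, and 82 and 285 scaled on the neuron markers. Of the 134 receptors higher than Control 86 were also higher than A&D, 8 were lower than A&D and 40 gave no call; both comparisons share the O&C libraries. Olfr1364 averaged 135 ± 17.1 CPM in O&C and 13.5 ± 1.29 CPM in A&D (log2 difference 3.33 ± 0.16, adjusted p = 9.96e-10). Olfr1170 averaged 16.1 ± 1.80 and 1.21 ± 0.198 CPM in O&C and in A&D (3.73 ± 0.21), and Olfr124 144 ± 26.5 and 18.7 ± 4.82 CPM (2.94 ± 0.22). Olfr984 (3.60 ± 0.29) and Olfr2 (2.62 ± 0.17) differed as widely. The Control means of Olfr1364, Olfr1170, Olfr124 and Olfr2 were 10.1 ± 0.657, 1.12 ± 0.288, 24.3 ± 6.35 and 3.93 ± 0.835 CPM.

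Other receptors of the largest rises were not called against A&D. Olfr117 averaged 33.5 ± 10.9 CPM in O&C and 31.6 ± 5.73 CPM in A&D (0.08 ± 0.29), against 1.56 ± 0.284 CPM in Control. Olfr218 averaged 15.7 ± 4.49 CPM in O&C and 22.8 ± 7.26 CPM in A&D (-0.53 ± 0.39). For Olfr1408 (0.80 ± 0.26), Olfr509 (1.02 ± 0.27), Olfr332 (0.90 ± 0.31) and Olfr1349 (0.41 ± 0.20) the A&D means of 23.2, 39.4, 52.8 and 105 CPM lay between those of O&C and Control. On the other side, Olfr983 averaged 1.82 ± 0.244 CPM in O&C and 40.7 ± 6.39 CPM in A&D (-4.48 ± 0.23), Olfr874 0.627 ± 0.126 and 23.02 ± 5.39 CPM (-5.18 ± 0.31), and Olfr1426 6.60 ± 0.918 and 64.1 ± 5.70 CPM (-3.28 ± 0.16). Olfr749 (-3.76 ± 0.20) and Olfr376 (-3.71 ± 0.22) were likewise lower in O&C. Of the 93 receptors lower than in A&D, 85 were not called higher than Control in O&C.

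Outside the receptors 375 genes were higher in O&C than in A&D and 148 lower. Nr4a1 averaged 185 ± 22.8 CPM in O&C and 80.4 ± 8.996 CPM in A&D (1.198 ± 0.15, adjusted p = 6.88e-05). Rem2 (1.09 ± 0.16), the dynamin gene Dnm1 (0.88 ± 0.13) and Nrde2 (1.11 ± 0.16) were higher as well, together with the receptor Olfr715b (2.80 ± 0.40). Tm4sf1 (-0.63 ± 0.10), Ifitm5 (-0.98 ± 0.16), the carbonic anhydrase gene Car1 (-1.16 ± 0.20), the thymidylate synthase gene Tyms (-0.56 ± 0.10) and the exonuclease gene Isg20 (-0.65 ± 0.12) were lower. The total higher count ranged from 115 to 410 and the lower count from 79 to 228 over the fits without 1 library, while the genes named here as higher or lower kept their calls in all 6.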

How the data were processed

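The authors deposited expected counts (reads per gene as estimated by the quantifier, in part fractional) without normalization. Reads were processed with STAR 2.7.10b, Salmon 1.10.1 and R 4.4.2 on GRCm39, per the submitters' processing notes; annotation and strand setting are not given in the sources used here. Symbols were matched for 52029 of 57010 identifiers. Here the deposited counts were rounded, filtered (filterByExpr, minimum count 10) and scaled by TMM. edgeR 4.0.16 (R 4.3.3) fitted 1 mean per group over all 15 libraries with the robust quasi-likelihood F test, two-sided; the common dispersion was 0.0336. Standard errors are |log2 fold change|/√F. Errors include counting and mouse-to-mouse spread.

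Receptors are symbols of Olfr and a number; class I are MOR families up to 42. The naming rule asked for an adjusted p below 0.05 against Control, kept without each of the 6 libraries, and no overlap between groups. It gave the 12 receptors with the largest and 8 with the lowest log2 fold change, and 6 with the largest gain in CPM. It also gave 15 risen and 12 fallen other genes averaging at least 1 CPM. Up to 6 members per list were named by the same p and leave-one-out conditions, with overlap allowed. A set of defining genes was named whatever their values. Against O+C and A&D, 5 receptors and 5 other genes in each direction were taken by p, without that rule. Some further genes were named outside these rules. A gene whose value was not whole (tolerance 0.0005) in over 7 of 15 libraries was taken to share reads. Members and gene lists were chosen with earlier results of these data known. The fit was tested on simulated counts. Alternatives were RLE, no TMM, receptor or neuron-marker scaling, no filter, DESeq2 1.42.0, O&C and Control libraries alone, a replicate block, gland level as covariate, and single libraries left out.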

Additional observations from a re-analysis of the deposited data

How the results depend on the processing

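Against Control, every named receptor called there kept its direction under all alternatives run, and so did the other called genes named, apart from those listed here. Genes called higher numbered 2866 scaled on the receptors, 201 scaled on the neuron markers (96 of them receptors), 2789 from O&C and Control libraries alone, 662 from the 3 libraries with Obp2a at or above 10 CPM and 1105 from the 3 below, against 1794. Genes lower numbered 62, 13990, 1875, 140 and 754 in the same order, and 1804 without TMM, against 1040. Without TMM 1304 were higher. Receptors higher were 81 with Obp2a below 10 CPM, and receptors lower 22 scaled on the receptors, 534 on the neuron markers, 114 without TMM, 110 without the filter, and 5 and 6 in the Obp2a subsets. The 2 Obp2a subsets were chosen after the data were seen. Both fits also held libraries of other groups, and the 3 libraries named for each are those of O&C and Control. O&C 2 was the only O&C library at or above 10 CPM, and Control 1 the only Control library below. A single library gives no spread of its own, so no conclusion is drawn from the counts of either subset. The receptor share turned to -4.39 points as a share of neuron-marker counts. Called genes that turned, each when scaled on the neuron markers, were Ier2 (-0.14), Ier5 (-0.18), Chac1 (-0.33), Cntn4 (-0.11), Rtp1 (-0.32), Lhx2 (-0.20), Cry2 (-0.10) and Kcnab2 (-0.23). Rtp1 and Lhx2 are themselves among the markers that set this scaling. Uncalled genes turned too, among them Arc (0.15 scaled on the receptors, 0.059 without O&C 3 and -0.46 without O&C 1, the ends of its range), Obp2a (2.96 with Obp2a below 10 CPM), Olfr376 (0.22 scaled on the receptors) and Olfr1426 (-0.60 scaled on the neuron markers). The causes were not tested, beyond the shifts in the median of all genes given with the results.

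Against O+C, genes higher were 1 scaled on the receptors, 114 without the filter and 2 by DESeq2, and lower 90 and 1 in the last 2; receptors higher were 1, 14 and 2, and lower 2 without the filter. Against A&D, genes higher were 2148 scaled on the receptors, 117 on the neuron markers, 947 without the filter, 994 from the 2 groups alone, 733 with the gland covariate and 997 by DESeq2, and lower 95, 4798, 813, 641, 396 and 475; receptors lower were 285 scaled on the neuron markers.

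Over the fits without 1 library, the counts against Control ranged from 1021 to 1560 (higher), 253 to 724 (lower), 108 to 136 (receptors higher) and 18 to 56 (receptors lower). They ranged against O+C from 0 to 2 (higher: 2 receptors without O&C 1, and Tmem150cos without O+C 1) and 0 to 0 (lower), and against A&D from 115 to 410, 79 to 228, 64 to 93 and 65 to 80. The receptor share difference ranged from 0.155 to 0.230 points.

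Deviations of same-numbered O&C and Control libraries from their group means correlated at 0.107, 0.0619 and -0.0481. For differently numbered libraries the correlations ran from -0.128 to 0.0821. With 3 libraries per group these values cannot show whether same-numbered libraries were handled together. A replicate block gave 1528 genes higher and 810 lower against Control, 128 and 55 of them receptors, and 249 higher and 148 lower against A&D. At 23313600 to 24891200 counts in the 6 libraries, receptors of under about 1 CPM rest on few reads.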
